A study of Mus musculus with 16 samples.

Results

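The hairpin shNup153-1 was compared with a control hairpin, shControl, in mouse primary cortical neurons at basal state, that is without drugs that silence activity. Both hairpins were delivered by an adeno-associated virus (AAV), and Nup153, the target of shNup153-1, encodes a nucleoporin. The comparison takes 6 of the 16 samples of the series by their titles, 2 with shNup153-1 and 4 with shControl. It covers the gene lines of the basal count table down to where the shNup153-1 columns go out of line with the gene symbols, which leaves out 9972 of the 26371 lines. Cortices came from C57/BL6 embryos of day 17.5 to 19.5, and the embryos of one litter were pooled into one replicate. Virus was present from day 8 to day 13 in culture (DIV), and poly(A) RNA was sequenced in both groups. All groups were otherwise cultured alike, and 2 basal libraries with the second Nup153 hairpin, shNup153-2, entered the fit to share the estimate of the spread and to test where the hairpins differ. Groups rest on the titles, because the description given for shNup153 samples names shControl instead. Per the labels' protocols, only cultures with enough Nup153 knockdown were sequenced, which limits what the level of Nup153 itself can show.

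Nup153 sits in the nuclear basket, the filamentous structure on the chromatin side of the nuclear pore. The basket takes part in the import and export of proteins and RNA, and Nup153 also contacts chromatin and chromatin regulators. The title of the series links Nup153 in neurons to the histone deacetylase HDAC1 and to neuronal responsiveness. Primary cortical cultures from embryos of this age hold mostly excitatory neurons with some interneurons, and also glial cells whose number depends on the medium and the time in culture.

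Total counts were 26863535 and 30896958 in the shNup153-1 libraries and 28940314 to 56299817 in the shControl libraries. The shControl libraries fell into pairs, since replicates 1 and 3 correlated at 0.986 and replicates 2 and 4 at 0.983 over log2 CPM, read counts scaled to a common library total, against 0.952 to 0.971 for the other pairs. The shNup153-1 libraries correlated at 0.969 with each other. The pairs were plain in Gfap, an astrocyte filament gene, which stood at 0.985 and 187 CPM in shNup153-1 replicates 1 and 2, against 90.4, 1.68, 153 and 10.8 CPM in shControl replicates 1 to 4. Hk2, a hexokinase gene induced by hypoxia, stood at 1.36 and 1.37 CPM with shNup153-1, against 199.6, 1.21, 115 and 4.54 CPM with shControl. Genes that follow this split vary widely within the shControl group, and neither Gfap nor Hk2 passed the test (edgeR adjusted p = 0.868 and 0.0912). Marker genes of neurons were present in all libraries, with summed CPM of 19 pan-neuronal markers of 12510.0 and 9533 with shNup153-1, against 8181 to 15010.0 with shControl.

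The level of the targeted gene was taken first. Nup153 (chromosome 13, 46679905 to 46727940, minus strand, mm10) stood at 17.2 and 28.4 CPM in the shNup153-1 libraries, against 97.4, 54, 80.6 and 58.6 CPM in the shControl libraries. Both shNup153-1 libraries lay below all shControl libraries, and the difference passed the test (log2 fold change -1.67 with SE 0.32, edgeR BH-adjusted p = 0.0122; edgeR's quasi-likelihood test with Benjamini-Hochberg adjustment over all genes, threshold 0.05). Levels in this text are CPM and differences are log2 fold changes of shNup153-1 over shControl unless another comparison is named. Nup153 (0.103) missed the threshold without shNup153-1 replicate 1 (edgeR BH-adjusted p in brackets). Tpr and Nup50, the other basket genes, did not pass, with log2 fold changes of -0.17 and 0.23.

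Of 9 tested genes of the Y-complex, which builds the pore scaffold, 1 fell and none rose, and of 15 other nucleoporin genes 1 fell and none rose, where 6.52% of all tested genes were called higher and 7.05% lower. The member of the first list was Ahctf1, which starts pore assembly on chromatin, at 39.2 and 54.6 CPM with shNup153-1 and 113, 86.6, 92.4 and 82.6 CPM with shControl (log2 fold change -0.999 with SE 0.22, edgeR BH-adjusted p = 0.0211). In the second list it was Gle1, an mRNA export factor on the cytoplasmic side of the pore, at 29.8 and 26.7 CPM with shNup153-1 and 50.4, 71.5, 52.2 and 68.1 CPM with shControl (log2 fold change -1.10 with SE 0.21, edgeR BH-adjusted p = 0.0121). Among 31 importins, exportins and Ran cycle genes 3 fell and none rose, with a list median of -0.38 against -0.02 for all genes tested. The numbers called higher and lower became 0 and 1 without shNup153-1 replicate 1 or 2. Kpna1, an importin alpha that carries cargo with nuclear localization signals, stood at 51.6 and 58.7 CPM with shNup153-1 and 302, 208, 185 and 192 CPM with shControl (log2 fold change -2.01 with SE 0.25, edgeR BH-adjusted p = 0.00307). Xpo5, the exporter of precursor microRNAs, stood at 49.99 and 53.7 CPM with shNup153-1 and 104, 80.9, 104 and 93.5 CPM with shControl (-0.88, SE 0.17, edgeR BH-adjusted p = 0.0137). Sun2, which links the lamina to the cytoskeleton, was at 17.5 and 26.4 CPM with shNup153-1 and 45.7, 40.6, 42.3 and 53.9 CPM with shControl, and fell by 1.06 (SE 0.23, edgeR BH-adjusted p = 0.019). Ahctf1 (0.16), Gle1 (0.0767), Xpo5 (0.109) and Sun2 (0.139) missed the threshold without shNup153-1 replicate 1 (edgeR BH-adjusted p in brackets), as did Gle1 (0.0723) and Xpo5 (0.0581) without shNup153-1 replicate 2.

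Several transcripts that fell share a 7-base sequence in their 3′ untranslated region (UTR). The sequence, TGGCTTT, had been picked on these libraries for its link to the fall, so the values here describe it and test nothing. It is shown because the change with shNup153-1 followed its copy number, as given below. The windows of 27 bases around each match are read 5′ to 3′ on the transcript strand (GENCODE M21, mm10), with the 7 bases in capitals. They come from Nup153, which was not lower than with shNup153-2, and from Tigar, Lig4, Kpna1 and Pgm2l1. The latter genes fell both against shControl and against shNup153-2 and were chosen after their values were seen.
Tigar, chr6:127087709-127087735, minus strand: acagccagccTGGCTTTtcctgtcatt
Tigar, chr6:127087548-127087574, minus strand: taggtggtgtTGGCTTTtgaagataat
Pgm2l1, chr7:100273251-100273277, plus strand: gcactcctcaTGGCTTTattcttgtca
Pgm2l1, chr7:100274369-100274395, plus strand: aacattttgtTGGCTTTtaggagtgta
Pgm2l1, chr7:100276463-100276489, plus strand: ttcattcagaTGGCTTTaaacttagta
Lig4, chr8:9970247-9970273, minus strand: ctgggtgctcTGGCTTTtagagatggc
Lig4, chr8:9970234-9970260, minus strand: cttttagagaTGGCTTTtatgactatg
Kpna1, chr16:36034393-36034419, plus strand: gagtacctggTGGCTTTttctagccac
Kpna1, chr16:36034634-36034660, plus strand: ttagtttgtaTGGCTTTtgcttctctt
Kpna1, chr16:36036594-36036620, plus strand: cagggcaaagTGGCTTTgttgttttcc
Nup153, chr13:46680839-46680865, minus strand: gcacggtgaaTGGCTTTgtatagaacc
Nup153, chr13:46680286-46680312, minus strand: ttgaatttatTGGCTTTtctgatccag
The bases that flank the 7 capitals differ from window to window. All 12 matches lie in a single exon, and the 2 windows of Lig4 overlap.

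The genes of these windows were lower with shNup153-1 to different degrees. Tigar, which encodes a p53-induced phosphatase that restrains glycolysis, stood at 4.66 and 7.14 CPM with shNup153-1 and 33, 40.8, 34.9 and 32.4 CPM with shControl (log2 fold change -2.57 with SE 0.24, edgeR BH-adjusted p = 0.00163). Lig4, the ligase of non-homologous end joining, stood at 5.84 and 8.05 CPM with shNup153-1 and 24.1, 26.6, 24.8 and 22.3 CPM with shControl (log2 fold change -1.81 with SE 0.21, edgeR BH-adjusted p = 0.00239). Pgm2l1, a synthase of glucose 1,6-bisphosphate, stood at 61.4 and 106 CPM with shNup153-1 and 527, 350.5, 257 and 397 CPM with shControl (log2 fold change -2.19 with SE 0.38, edgeR BH-adjusted p = 0.00872). With shNup153-2 the levels were 24.3 and 25.5 CPM for Tigar, 18.1 and 19.5 for Lig4, 166 and 158 for Kpna1 and 957 and 632 for Pgm2l1. In each of the 4 genes both shNup153-1 libraries lay below every library of the other groups. Pgm2l1 (0.0809) missed the threshold without shNup153-1 replicate 1 (edgeR BH-adjusted p in brackets).

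Over all tested genes with an annotated 3′ UTR, the change was graded by the number of copies of TGGCTTT. The median log2 fold change was 0.03 for 10461 genes with no copy, -0.14 for 2442 genes with 1 copy, -0.33 for 556 genes with 2 copies and -0.55 for 214 genes with 3 or more. In the same order, the share of genes called lower was 5.29%, 11.5%, 19.4% and 20.1%, and the share called higher was 7.51%, 5.04%, 2.52% and 0.935%. For the reverse complement, AAAGCCA, the medians were -0.02, -0.02, -0.01 and 0.05 over the same classes, and the shares called lower 6.99%, 7.83%, 8.97% and 9.02%. Longer 3′ UTRs hold more copies, with medians of 936 bases for no copy and 4674 bases for 3 or more copies. Within each of 5 classes of 3′ UTR length, genes with TGGCTTT had the lower median and the larger share called lower. In the middle class, from 899 to 1575 bases, the share called lower was 15.2% of 493 genes with the sequence and 6.15% of 2243 genes without. Each shNup153-1 library alone gave the same order, with medians of -0.02, -0.08, -0.22 and -0.30 without replicate 1 and 0.02, -0.30, -0.53 and -0.87 without replicate 2. Against shNup153-2 the medians by copy number were 0.08, -0.25, -0.44 and -0.72. The medians for AAAGCCA were -0.07, 0.04, 0.09 and 0.18 without shNup153-1 replicate 1, but -0.04, -0.16, -0.23 and -0.26 without replicate 2, and 0.03, -0.13, -0.23 and -0.25 against shNup153-2. With replicate 1 alone, and against shNup153-2, the medians of both sequences were thus lower with more copies, and those of TGGCTTT by more.

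**Figure D1:**
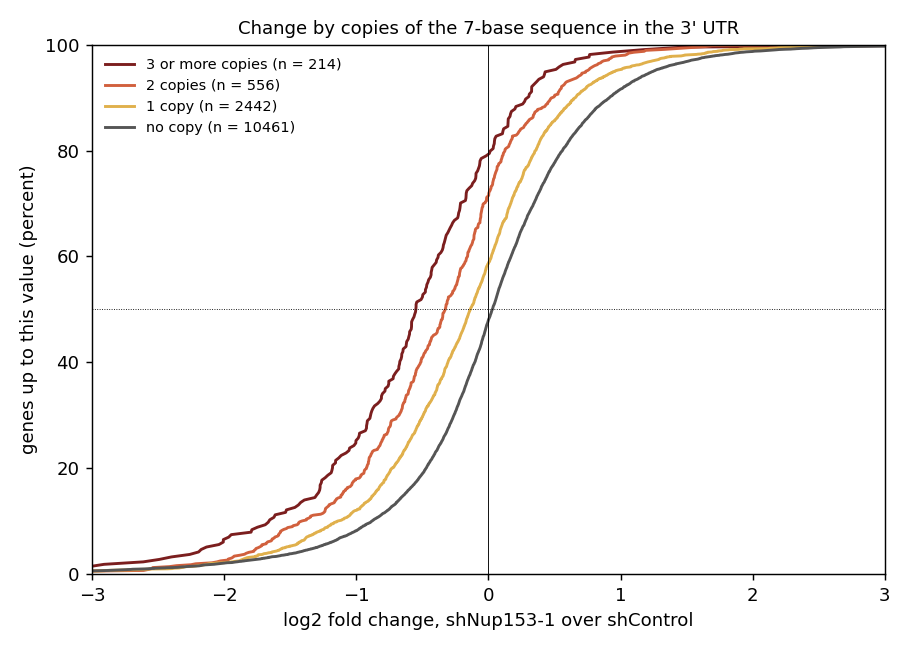
Cumulative share of genes (y axis, percent) up to a given log2 fold change of shNup153-1 over shControl (x axis), for genes with 0, 1, 2 and 3 or more copies of the 7-base sequence in the longest annotated 3′ UTR. The curves shift to the left with the number of copies, with medians of 0.03, -0.14, -0.33 and -0.55.

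Of 1738 mature mouse microRNAs of RefSeq (GRCm38.p6), 1 has a seed, bases 2 to 8, that pairs with TGGCTTT along all 7 bases. It is mmu-miR-742-3p on the X chromosome, 66780376 to 66780397, minus strand, shown here with the seed in capitals.
mmu-miR-742-3p: gAAAGCCAccaugcuggguaaa
The hairpin sequences were not analysed here, so whether shNup153-1 holds these bases was not tested, nor was the part of the sequence in any single fall.

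Across the 14529 genes tested, 947 were higher with shNup153-1 (6.52%) and 1024 were lower (7.05%), 1971 in all (13.6%). The libraries of the groups did not overlap for 5243 tested genes (36.1%), among them 1970 of the 1971 called. The median over all tested genes was -0.02, and the medians of the genes called were 1.18 for those higher and -1.29 for those lower. Changes of at least 1 on the log2 scale were seen in 619 of the genes called higher and 723 of those called lower. The genes called higher held 8.63% and 8.48% of all counts with shNup153-1, against 3.68% to 4.06% with shControl. The genes called lower held 2.99% and 3.58% of counts with shNup153-1, against 7.51% to 8.17% with shControl. With 1 library left out, the calls came to 356 without shNup153-1 replicate 1, 998 without shNup153-1 replicate 2, 1194 without shControl replicate 4, and 1164 and 1168 without shNup153-2 replicate 1 or 2. A set of 298 genes, 176 higher and 122 lower, was called in all 8 of these fits, and no called gene had the other sign in any of them. In 40 of the 68 gene lists at least 1 gene was called but no more than 3 in either direction. Some of these lists had no call without shNup153-1 replicate 1. A fit of the 6 libraries alone called 1203, DESeq2 called 3146, and limma-voom 1908.

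**Figure D2:**
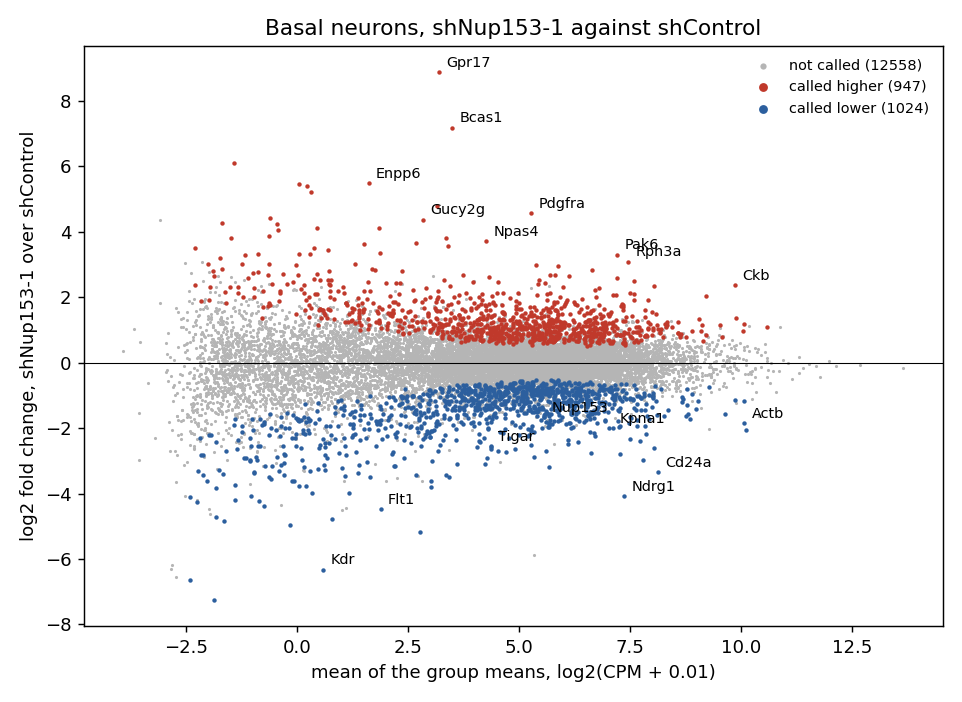
Log2 fold change of shNup153-1 over shControl (y axis) against mean log2 CPM over both groups (x axis) for the 14529 genes tested, each point a gene. Genes called higher (947) and lower (1024) are coloured, and named genes carry their symbols, with Gpr17 at 8.87 and Kdr at -6.33 at the ends.

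CPM is not corrected for gene length, so levels are compared between libraries and not between genes. Among the genes of highest CPM that rose, Ckb, the brain creatine kinase, stood at 1761 and 1367 CPM with shNup153-1 and 289, 287, 299.6 and 338 CPM with shControl (log2 fold change 2.37 with SE 0.20, edgeR BH-adjusted p = 0.00163). Nrgn, neurogranin, which binds calmodulin in dendrites, stood at 865 and 1039 CPM with shNup153-1 and 130.2, 352, 223 and 215 CPM with shControl (log2 fold change 2.05 with SE 0.35, edgeR BH-adjusted p = 0.00858). Kif5a, the heavy chain of a neuronal kinesin, stood at 1487 and 1503 CPM with shNup153-1 and 727, 651, 584 and 665 CPM with shControl (log2 fold change 1.19 with SE 0.18, edgeR BH-adjusted p = 0.0059). Ywhag, a 14-3-3 protein gene, stood at 1330.3 and 1407 CPM with shNup153-1 and 617, 477, 544 and 499 CPM with shControl (log2 fold change 1.36 with SE 0.18, edgeR BH-adjusted p = 0.00371). The shControl libraries were tight for Ckb and widely spread for Nrgn. No shControl library reached a shNup153-1 library in any of the 4 genes, which was a condition for naming them. Atp6v1a, a subunit of the vacuolar proton pump, rose by 1.16 (SE 0.17) and Syt1, the calcium sensor of vesicle release, by 0.98 (SE 0.19). Atp6v1a (0.0526) and Syt1 (0.0928) missed the threshold without shNup153-1 replicate 1 (edgeR BH-adjusted p in brackets), as did Syt1 (0.0611) without shNup153-1 replicate 2. The other 4 of the 10 called higher at the highest CPM each lost the call in at least 6 of the 8 fits with a library left out.

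The falls of highest CPM included Actb, the cytoplasmic actin, at 464 and 470.3 CPM with shNup153-1 and 2052, 1961, 1254 and 1475 CPM with shControl (log2 fold change -1.85 with SE 0.27, edgeR BH-adjusted p = 0.00514). Enc1, an actin-associated protein of the nervous system, stood at 348 and 507 CPM with shNup153-1 and 2261, 1541, 1517 and 1821 CPM with shControl (log2 fold change -2.06 with SE 0.29, edgeR BH-adjusted p = 0.00453). Eif4g2, a translation initiation factor, stood at 654 and 658 CPM with shNup153-1 and 1494, 1728, 1294 and 1386 CPM with shControl (log2 fold change -1.17 with SE 0.21, edgeR BH-adjusted p = 0.01). Sphkap, an anchor of protein kinase A, stood at 180.3 and 249 CPM with shNup153-1 and 823, 775, 513 and 709 CPM with shControl (log2 fold change -1.72 with SE 0.28, edgeR BH-adjusted p = 0.00756). In each of these genes the highest shNup153-1 library lay below the lowest shControl library, again a condition for naming them. Actr2, a subunit of the Arp2/3 complex that nucleates branched actin, was chosen after its values were seen and stood at 68.5 and 80.4 CPM with shNup153-1 and 509, 510.4, 435 and 367 CPM with shControl (log2 fold change -2.61 with SE 0.23, edgeR BH-adjusted p = 0.00163). Its 3′ UTR holds 4 copies of TGGCTTT, that of Actb and that of Eif4g2 hold 1 each, that of Sphkap 2 and that of Enc1 none. Ncdn, neurochondrin, fell by 1.58 and the endoplasmic reticulum chaperone gene Canx by 1.42. Actb (0.0557), Enc1 (0.0525), Eif4g2 (0.0855), Sphkap (0.0778), Ncdn (0.0867) and Canx (0.154) missed the threshold without shNup153-1 replicate 1 (edgeR BH-adjusted p in brackets), as did Eif4g2 (0.0597), Ncdn (0.071) and Canx (0.0736) without shNup153-1 replicate 2. The falls of Mef2c, Gabbr1 and Snap91, also among the 10 of highest CPM, each missed the threshold in 7 of the 8 fits with a library left out.

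Of the following genes, Traf3, Tm9sf3, Cdh2 and Cd24a were chosen after their values were seen. Pak6, a p21-activated kinase, stood at 274 and 264 CPM with shNup153-1 and 27.6, 31, 24.8 and 26 CPM with shControl (log2 fold change 3.30 with SE 0.16, edgeR BH-adjusted p = 0.000133). Traf3, a signalling adaptor of tumour necrosis factor receptors, stood at 247 and 262 CPM with shNup153-1 and 48.3, 38.6, 42.7 and 39.9 CPM with shControl (log2 fold change 2.59 with SE 0.16, edgeR BH-adjusted p = 0.000358). Tm9sf3, a transmembrane protein of the secretory pathway, stood at 37.3 and 40.4 CPM with shNup153-1 and 293, 275, 267 and 244 CPM with shControl (log2 fold change -2.80 with SE 0.19, edgeR BH-adjusted p = 0.000596). Panx2, a pannexin, completes the 4 genes with an edgeR adjusted p below 0.001, at 189 and 162 CPM with shNup153-1 and 23.6, 24.9, 23.2 and 27.2 CPM with shControl (log2 fold change 2.83 with SE 0.16, edgeR BH-adjusted p = 0.000262). All 4 were called with any library left out. Ctnnd2, delta-catenin of the dendritic spine, stood at 288 and 369 CPM with shNup153-1 and 73.4, 43.9, 59 and 58.3 CPM with shControl (log2 fold change 2.48 with SE 0.22, edgeR BH-adjusted p = 0.00163). Cdh2, N-cadherin, to which catenins bind, stood at 37 and 63.4 CPM with shNup153-1 and 474, 378, 361 and 363 CPM with shControl (log2 fold change -2.97 with SE 0.28, edgeR BH-adjusted p = 0.00163). Cd24a, a small surface protein of immature neurons, stood at 53.6 and 47.3 CPM with shNup153-1 and 434, 723, 292 and 601 CPM with shControl (log2 fold change -3.34 with SE 0.44, edgeR BH-adjusted p = 0.00354).

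Many of the largest rises were in genes of the oligodendrocyte lineage, the glial cells that make myelin. Precursors divide and carry the receptor Pdgfra, cells about to myelinate carry Gpr17, Bcas1 and Enpp6, and mature cells carry the myelin proteins. Of 17 tested precursor markers 9 rose and 1 fell, and of 32 tested oligodendrocyte and myelin markers 14 rose and 2 fell, against 6.52% of all genes called higher. The list medians were 1.94 and 0.90, against -0.02 for all genes tested. Pdgfra stood at 107 and 41.2 CPM with shNup153-1 and 2.26, 1.68, 1.06 and 7.55 CPM with shControl (log2 fold change 4.57 with SE 0.72, edgeR BH-adjusted p = 0.00647). Olig1, a transcription factor of the lineage, stood at 371 and 509 CPM with shNup153-1 and 76, 44.5, 146 and 85.2 CPM with shControl (log2 fold change 2.32 with SE 0.41, edgeR BH-adjusted p = 0.00964). These levels were high in both shNup153-1 libraries, and replicate 1 was above replicate 2 for Pdgfra and below it for Olig1. In bulk RNA, more cells of a type and more RNA per cell cannot be told apart.

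Among genes of the stage before myelination, Gpr17 stood at 25.3 and 11.2 CPM with shNup153-1 and 0, 0, 0 and 0.16 CPM with shControl (log2 fold change 8.87 with SE 0.93, edgeR BH-adjusted p = 0.00186). Bcas1 stood at 30.02 and 15.1 CPM with shNup153-1 and 0.147, 0.11, 0 and 0.352 CPM with shControl (log2 fold change 7.18 with SE 0.69, edgeR BH-adjusted p = 0.00163), and 12.6% of its exonic bases overlap a gene on the other strand, here called antisense overlap. Library preparation kept the strand, but the strand setting of the counting is not stated, so reads of such pairs may not be told apart. Enpp6, a choline phosphodiesterase, stood at 8.15 and 3.84 CPM with shNup153-1 and 0.147, 0.183, 0.0621 and 0.128 CPM with shControl (log2 fold change 5.49 with SE 0.45, edgeR BH-adjusted p = 0.00163). Counts of these genes were at or near 0 with shControl, so the fitted fold changes depend on the prior count and give the direction rather than the size. Tmem100 and Nkx2-2 rose by 2.81 (SE 0.45) and 2.42 (SE 0.47). Of the myelin genes, Mag, a myelin adhesion protein, stood at 2.8 and 1.22 CPM with shNup153-1 and 0.0368, 0.146, 0 and 0 CPM with shControl, and Cldn11, a tight junction protein of myelin, at 3.41 and 2.53 CPM with shNup153-1 and 0.276, 0.256, 0.186 and 0.352 CPM with shControl. Sox10, the master regulator of the lineage, stood at 27.1 and 7.14 CPM with shNup153-1 and 0.239, 0.0731, 0 and 2.18 CPM with shControl (log2 fold change 4.79 with SE 1.22, edgeR BH-adjusted p = 0.0355), with shControl replicate 4 above the others. Fa2h, which makes the hydroxylated fatty acids of myelin lipids, rose by 4.22 (SE 0.77). Mbp, the basic protein of myelin, did not pass the test, at 31.4 and 37.2 CPM with shNup153-1 and 45.9, 7.49, 29 and 19.3 CPM with shControl. Pdgfra (0.0585), Nkx2-2 (0.0817), Mag (0.0601), Fa2h (0.0913) and Sox10 (0.216) missed the threshold without shNup153-1 replicate 1 (edgeR BH-adjusted p in brackets), as did Olig1 (0.0513), Nkx2-2 (0.0538) and Sox10 (0.0538) without shNup153-1 replicate 2, Sox10 (0.0757) without shControl replicate 1, Sox10 (0.0638) without shNup153-2 replicate 1 and Sox10 (0.0637) without shNup153-2 replicate 2.

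Members that fell in these lists included Vcan and Hapln2. Hapln2, a link protein at nodes of Ranvier, had 1 count over both shNup153-1 libraries and 76 over the shControl libraries, a shControl to shNup153-1 ratio of 30.1 with a 95% exact interval of 5.24 to 1200 for counting error. Gjc3, a connexin of the lineage, rose and had 40 counts with shNup153-1 and 1 with shControl, a ratio of 101 (95% interval 17.1 to 4090). Gjc3 (0.14), Hapln2 (0.0982) and Vcan (0.18) missed the threshold without shNup153-1 replicate 1 (edgeR BH-adjusted p in brackets), as did Gjc3 (0.054) without shControl replicate 1, Vcan (0.0513) without shControl replicate 3, Gjc3 (0.0701) without shControl replicate 4, Vcan (0.091) without shNup153-1 replicate 2, Vcan (0.0503) without shNup153-2 replicate 1 and Vcan (0.0503) without shNup153-2 replicate 2. The mean log2 CPM of the precursor list was 4.55 and 4.20 with shNup153-1, against 1.98 to 2.82 with shControl, and 2.74 and 2.85 with shNup153-2. With 1 library left out, the numbers of precursor markers called higher and lower became 4 and 0 without shNup153-1 replicate 1 or 2, 6 and 0 without shNup153-2 replicate 1 or 2, and 9 and 0 without shControl replicate 3, and those of myelin markers 2 and 1 without shNup153-1 replicate 1, and 9 and 2 without shNup153-2 replicate 1 or 2 or shControl replicate 1 or 4.

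**Figure D3:**
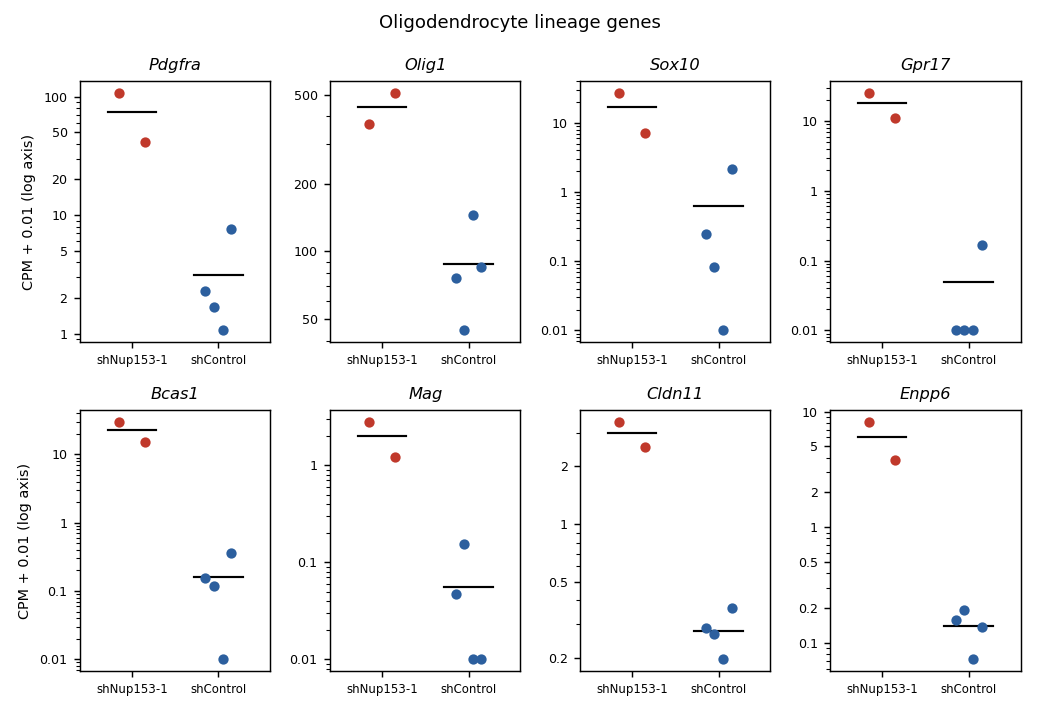
CPM (log axis, offset 0.01) of 8 oligodendrocyte lineage genes in each library, each point a library, with shNup153-1 (2 libraries) left of shControl (4 libraries) in each panel and a bar at the group mean. Gpr17 stood at 25.3 and 11.2 CPM with shNup153-1 and 0, 0, 0 and 0.16 CPM with shControl, and Mag at 2.8 and 1.22 CPM with shNup153-1 and 0.0368, 0.146, 0 and 0 CPM with shControl.

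Of the 12 largest rises, some lie outside these marker lists. Gucy2g, a receptor guanylyl cyclase, stood at 17 and 10.5 CPM with shNup153-1 and 0.368, 0.95, 0.466 and 0.928 CPM with shControl (log2 fold change 4.36 with SE 0.43, edgeR BH-adjusted p = 0.00165). With shNup153-2 it stood at 10.7 and 7.09 CPM, and the difference between the hairpins did not pass the test (log2 0.63, SE 0.47). Cxcl10, an interferon-induced chemokine, stood at 1.36 and 1.12 CPM with shNup153-1 and 0.0552, 0.0731, 0.031 and 0.064 CPM with shControl (log2 fold change 4.41 with SE 0.47, edgeR BH-adjusted p = 0.00191). Plxnb3, a plexin, stood at 2.58 and 1.97 CPM with shNup153-1 and 0, 0, 0.031 and 0.192 CPM with shControl. Patl2, a relative of an mRNA decay factor, stood at 4.21 and 0.624 CPM with shNup153-1 and 0.0736, 0.11, 0.031 and 0.032 CPM with shControl, and was high in shNup153-1 replicate 1 above all. Of 33 tested interferon response and antigen presentation genes 2 rose and 1 fell, where 6.52% of all tested genes were called higher and 7.05% lower. Of 36 tested cAMP, cGMP and phosphodiesterase genes 5 rose and 4 fell, and the counts were 4 and 1 without shNup153-1 replicate 1, and 3 and 3 without shNup153-1 replicate 2, with Pde4a, a cAMP phosphodiesterase, at 75.7 and 80.1 CPM with shNup153-1 and 35.2, 40.3, 33.3 and 35.7 CPM with shControl (log2 fold change 1.11 with SE 0.15, edgeR BH-adjusted p = 0.0038). Prkg2, a cGMP-dependent kinase, stood at 3.94 and 3.65 CPM with shNup153-1 and 16.2, 13.8, 9.996 and 14.8 CPM with shControl (log2 fold change -1.85 with SE 0.26, edgeR BH-adjusted p = 0.00449). Crtc1, a coactivator of CREB that moves between synapse and nucleus, stood at 102 and 126 CPM with shNup153-1 and 55.5, 41.8, 55.5 and 47.6 CPM with shControl (log2 fold change 1.18 with SE 0.18, edgeR BH-adjusted p = 0.00541). Plxnb3 (0.0554) and Patl2 (0.0619) missed the threshold without shNup153-1 replicate 1 (edgeR BH-adjusted p in brackets).

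Among the 12 largest falls, Isg20, an interferon-induced exonuclease, stood at 0.114 and 0.156 CPM with shNup153-1 and 1.38, 1.94, 2.58 and 1.79 CPM with shControl (log2 fold change -3.78 with SE 0.48, edgeR BH-adjusted p = 0.00316). Mei4, known from meiotic recombination, stood at 0 and 0.281 CPM with shNup153-1 and 2.59, 1.68, 3.41 and 1.86 CPM with shControl (log2 fold change -3.98 with SE 0.82, edgeR BH-adjusted p = 0.017). Isg20 was called with any library left out. Several others followed the pairs of shControl libraries, and their calls depended on single libraries. H2-Ab1, a chain of the class II antigen-presenting molecule, stood at 0.758 and 1.4 CPM with shNup153-1 and 27.2, 1.9, 23.9 and 7.65 CPM with shControl (log2 fold change -3.80 with SE 1.03, edgeR BH-adjusted p = 0.0439). In this gene shControl replicates 1 and 3 were above 20 CPM and replicate 2 was near the shNup153-1 libraries. Gnb3, Ppl and Lbx2 had 3 counts each over both shNup153-1 libraries, and shControl to shNup153-1 ratios of 22.2 (95% exact interval 7.45 to 109), 21.9 (7.36 to 107) and 28.5 (9.62 to 139), which cover counting error only. Mei4 (0.0559), H2-Ab1 (0.226), Gnb3 (0.0613), Ppl (0.0941) and Lbx2 (0.129) missed the threshold without shNup153-1 replicate 1 (edgeR BH-adjusted p in brackets), as did H2-Ab1 (0.133), Ppl (0.1) and Lbx2 (0.127) without shNup153-1 replicate 2, H2-Ab1 (0.057) and Lbx2 (0.0529) without shControl replicate 4, H2-Ab1 (0.072) without shControl replicate 1, H2-Ab1 (0.0707) without shControl replicate 3, H2-Ab1 (0.074) without shNup153-2 replicate 1 and H2-Ab1 (0.0738) without shNup153-2 replicate 2.

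Markers of other cell types were counted in the same way. Of 27 astrocyte markers 5 rose and none fell, against 6.52% and 7.05% of all tested genes, and their summed CPM was 4623 and 7584 with shNup153-1, against 2430.0 to 6236 with shControl. The astrocyte markers called higher and lower numbered 1 and 0 without shNup153-1 replicate 1 or 2, 2 and 0 without shNup153-2 replicate 1 or 2, and 3 and 0 without shControl replicate 1, and the list median was 0.95 without shNup153-1 replicate 1 and -0.02 without shNup153-1 replicate 2, against 0.56 with all libraries. Clu, a chaperone of astrocytes, stood at 181 and 201 CPM with shNup153-1 and 71, 56.6, 67.1 and 88.9 CPM with shControl (log2 fold change 1.43 with SE 0.20, edgeR BH-adjusted p = 0.00472). Of 20 neural progenitor markers 5 rose and 4 fell, with summed CPM of 1762 and 2688 with shNup153-1, against 780.2 to 1509 with shControl. These calls became 1 and 0 without shNup153-1 replicate 1, 2 and 1 without shNup153-1 replicate 2, 3 and 1 without shNup153-2 replicate 1 or 2 or shControl replicate 4, 3 and 2 without shControl replicate 1, and 5 and 2 without shControl replicate 2, higher and lower in that order. Of 31 interneuron markers 2 rose and none fell, a share near the 6.52% of all tested genes, and the counts were 0 and 0 without shNup153-1 replicate 1, 1 and 0 without shNup153-1 replicate 2, and 4 and 0 without shControl replicate 2. Among them the vesicular GABA transporter gene Slc32a1 rose by 1.72 (SE 0.36). The interneuron sum was 4235 and 3455 CPM with shNup153-1, against 1890.0 to 3138 CPM with shControl. Of 32 excitatory neuron and layer markers 2 rose and 5 fell, with a sum of 2099 and 3098 CPM with shNup153-1, against 3721 to 4987 CPM with shControl. The excitatory counts became 0 and 0 without shNup153-1 replicate 1, 0 and 3 without shNup153-1 replicate 2, 0 and 1 without shNup153-2 replicate 1 or 2 or shControl replicate 4, 1 and 2 without shControl replicate 1, and 1 and 5 without shControl replicate 3, and the share called higher was near the 6.52% of all genes. Lmo4, a cofactor expressed in upper layers, stood at 142 and 144 CPM with shNup153-1 and 359, 383, 284 and 438 CPM with shControl (log2 fold change -1.36 with SE 0.21, edgeR BH-adjusted p = 0.00643). None of 7 microglial and none of 9 Cajal-Retzius markers tested was called. Only 9 of the 20 microglial markers listed lie in the lines used. The part of the cell mix in the changes of other genes was not tested. Slc32a1 (0.164) and Lmo4 (0.0633) missed the threshold without shNup153-1 replicate 1 (edgeR BH-adjusted p in brackets).

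Of 8 tested endothelial markers 3 fell and none rose, where 7.05% of all tested genes were called lower, and the list sum was 18.8 and 14.9 CPM with shNup153-1, against 31 to 47.9 CPM with shControl. The numbers called higher and lower were 0 and 1 without shNup153-1 replicate 1 or 2. Of 18 mural and fibroblast markers 2 rose and none fell, and none was called without shNup153-1 replicate 1. Flt1, a receptor for vascular endothelial growth factor, stood at 0.114 and 0.499 CPM with shNup153-1 and 10.1, 8.22, 3.66 and 6.3 CPM with shControl (log2 fold change -4.48 with SE 0.66, edgeR BH-adjusted p = 0.00526). Kdr, the main signalling receptor of that family, was at 0 and 0.0624 CPM with shNup153-1 and 6.13, 1.13, 0.652 and 4 CPM with shControl, a range of more than 5 CPM within the shControl group. Egfl7, secreted by endothelium, stood at 7.62 and 5.21 CPM with shNup153-1 and 13.4, 22.9, 13 and 17.2 CPM with shControl (log2 fold change -1.37 with SE 0.31, edgeR BH-adjusted p = 0.0223). Of growth factor genes, Pdgfc, a ligand of Pdgfra, fell by 1.78 (SE 0.26) and Kitl, the ligand of Kit, by 1.68 (SE 0.34), while Vegfb rose by 0.97 (SE 0.17) and Fgf1 by 1.08 (SE 0.17). Kdr (0.153), Egfl7 (0.0756), Pdgfc (0.0539), Kitl (0.0601) and Vegfb (0.0854) missed the threshold without shNup153-1 replicate 1 (edgeR BH-adjusted p in brackets), as did Kdr (0.0863) and Egfl7 (0.122) without shNup153-1 replicate 2 and Egfl7 (0.061) without shControl replicate 4.

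Immediate early genes, the first transcripts that firing induces in neurons, were called higher or not at all. Of 38 tested, 17 rose, against 6.52% of all genes, and none fell. For 22 both shNup153-1 libraries lay above all shControl libraries and for 2 below them (36.1% of all tested genes did not overlap, in either direction), with a list median of 1.00. The mean log2 CPM of the list was 4.41 and 3.94 with shNup153-1, against 2.83 to 3.48 with shControl. Npas4, a transcription factor specific to active neurons, stood at 54 and 17.2 CPM with shNup153-1 and 2.83, 2.48, 3.48 and 2.11 CPM with shControl (log2 fold change 3.70 with SE 0.40, edgeR BH-adjusted p = 0.00201). Nr4a1, an orphan nuclear receptor, stood at 47.7 and 21.7 CPM with shNup153-1 and 5.92, 3.29, 9.9 and 3.68 CPM with shControl (log2 fold change 2.60 with SE 0.46, edgeR BH-adjusted p = 0.00969). Arc, which trims synaptic AMPA receptors, stood at 29 and 16.6 CPM with shNup153-1 and 6.77, 2.92, 6.27 and 4.77 CPM with shControl (log2 fold change 2.13 with SE 0.40, edgeR BH-adjusted p = 0.012). Ier2 stood at 39.3 and 13.5 CPM with shNup153-1 and 3.68, 6.5, 4.97 and 3.87 CPM with shControl (log2 fold change 2.47 with SE 0.42, edgeR BH-adjusted p = 0.00818). Replicate 1 was higher than replicate 2 in each of these 4 genes, and replicate 2 still exceeded every shControl library. Fos did not pass the test, at 92 and 36.2 CPM with shNup153-1 and 18.1, 3.54, 23.8 and 6.66 CPM with shControl (edgeR BH-adjusted p = 0.052). With 1 library left out, the numbers called higher and lower became 1 and 0 without shNup153-1 replicate 1, 10 and 0 without shNup153-1 replicate 2 or shNup153-2 replicate 2, and 9 and 0 without shNup153-2 replicate 1 or shControl replicate 4, while the list median stayed between 0.87 and 1.23. The call left without shNup153-1 replicate 1 was Npas4. Nr4a1 (0.0944), Arc (0.11) and Ier2 (0.0839) missed the threshold without shNup153-1 replicate 1 (edgeR BH-adjusted p in brackets).

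A cyclic AMP response element (CRE), the full palindrome TGACGTCA, was searched on both strands of RefSeq promoter windows (GRCm38.p6, 250 bases before to 50 after the start). It is shown because CREB, which binds it, drives many activity-induced genes. The element was present in 385 of 11020 windows of tested genes (3.49%), in 4.37% of genes called higher and in 2.88% of those called lower. Of 13 called immediate early genes with a window 2 held it, Dusp1 and Btg2, shown with the element in capitals.
Dusp1, chr17:26508596-26508627, minus strand: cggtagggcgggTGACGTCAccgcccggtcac
Btg2, chr1:134079302-134079333, minus strand: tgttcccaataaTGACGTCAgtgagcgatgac
The element starts 143 bases before the start of Dusp1 and 166 bases before that of Btg2. Dusp1, a phosphatase that turns off MAP kinases, stood at 54.7 and 25.9 CPM with shNup153-1 and 11.3, 7.02, 9.93 and 8.86 CPM with shControl (log2 fold change 2.12 with SE 0.32, edgeR BH-adjusted p = 0.00577). Btg2, an antiproliferative factor, stood at 75.5 and 56.1 CPM with shNup153-1 and 32.4, 19.1, 43.1 and 22.9 CPM with shControl (log2 fold change 1.16 with SE 0.32, edgeR BH-adjusted p = 0.0441). Dusp1 (0.0576) and Btg2 (0.245) missed the threshold without shNup153-1 replicate 1 (edgeR BH-adjusted p in brackets), as did Btg2 (0.0637) without shControl replicate 1, Btg2 (0.0884) without shControl replicate 4, Btg2 (0.0802) without shNup153-1 replicate 2, Btg2 (0.0712) without shNup153-2 replicate 1 and Btg2 (0.0709) without shNup153-2 replicate 2.

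Late activity-regulated genes were split. Of 38 tested 8 rose and 2 fell, with a median of 0.50, against 6.52% of all tested genes called higher and 7.05% lower. Leaving out 1 library changed these counts to 1 and 2 without shNup153-1 replicate 1, and 9 and 4 without shControl replicate 3. Bdnf, a neurotrophin, stood at 28.9 and 18.7 CPM with shNup153-1 and 3.88, 4.6, 9.9 and 5.73 CPM with shControl (log2 fold change 1.98 with SE 0.42, edgeR BH-adjusted p = 0.0183), with 14.4% antisense overlap. Scg2, a granin of dense-core vesicles, stood at 414 and 213 CPM with shNup153-1 and 56.4, 54.3, 94.7 and 90.1 CPM with shControl (log2 fold change 2.09 with SE 0.35, edgeR BH-adjusted p = 0.00802). Pcsk1, which cuts prohormones, stood at 36.2 and 31.2 CPM with shNup153-1 and 6.29, 10.7, 5.9 and 9.92 CPM with shControl (log2 fold change 2.04 with SE 0.27, edgeR BH-adjusted p = 0.0038). Nptx2, a pentraxin that clusters AMPA receptors, stood at 27.1 and 22.4 CPM with shNup153-1 and 4.49, 7.05, 7.45 and 9.12 CPM with shControl (log2 fold change 1.82 with SE 0.36, edgeR BH-adjusted p = 0.0139). The falls went the other way from these, in genes that activity also induces. Plk2, a kinase of homeostatic scaling, stood at 202 and 222 CPM with shNup153-1 and 678, 757, 518 and 685 CPM with shControl (log2 fold change -1.64 with SE 0.22, edgeR BH-adjusted p = 0.00354). Nrn1, neuritin, stood at 31.5 and 46.9 CPM with shNup153-1 and 126, 105, 115 and 120.4 CPM with shControl (log2 fold change -1.57 with SE 0.22, edgeR BH-adjusted p = 0.00489), with 22.3% antisense overlap. Furin, which processes pro-neurotrophins, rose by 1.22 (SE 0.18), and Ret, the receptor of glial-derived neurotrophic factor, fell by 1.45 (SE 0.24). Bdnf (0.137), Scg2 (0.079), Nptx2 (0.0988) and Ret (0.0736) missed the threshold without shNup153-1 replicate 1 (edgeR BH-adjusted p in brackets).

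**Figure D4:**
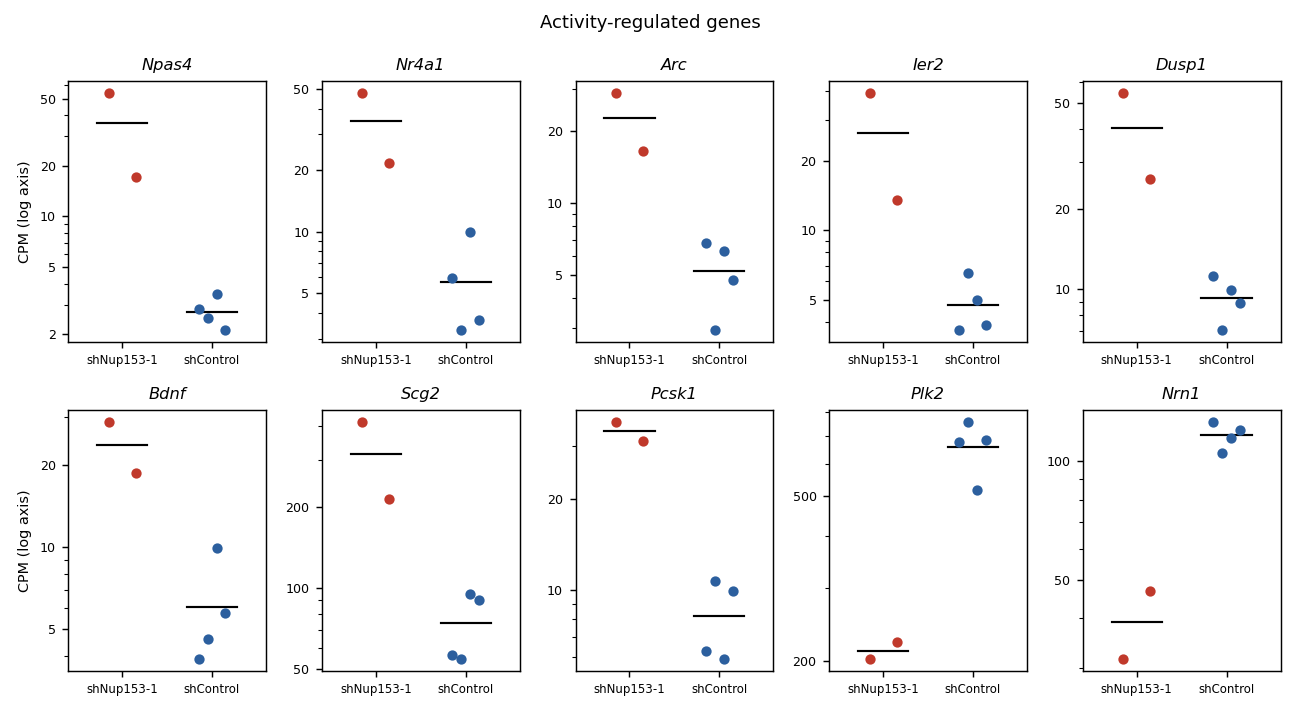
CPM (log axis) of 10 activity-regulated genes in each library, each point a library, with shNup153-1 (2 libraries) left of shControl (4 libraries) and a bar at the group mean. Npas4 stood at 54 and 17.2 CPM with shNup153-1 and 2.83, 2.48, 3.48 and 2.11 CPM with shControl, while Plk2 and Nrn1 were lower with shNup153-1.

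Genes that set excitability moved in part. Of 67 potassium and HCN channel genes 10 rose and 2 fell, with a median of -0.09, so the calls were of single channels. The share called higher was above the 6.52% of all tested genes and the share called lower below their 7.05%. Left-out libraries changed these counts to 5 and 0 without shNup153-1 replicate 1, 6 and 3 without shNup153-1 replicate 2, 7 and 1 without shNup153-2 replicate 1 or 2 or shControl replicate 4, and 10 and 1 without shControl replicate 1. Hcn2, a pacemaker channel opened by hyperpolarization, stood at 118 and 76.3 CPM with shNup153-1 and 16.1, 16.3, 10.9 and 17.8 CPM with shControl (log2 fold change 2.67 with SE 0.24, edgeR BH-adjusted p = 0.00163). Kcng4, a silent subunit that modifies Kv2 channels, stood at 6.41 and 7.17 CPM with shNup153-1 and 0.313, 0.621, 0.155 and 0.48 CPM with shControl (log2 fold change 4.13 with SE 0.44, edgeR BH-adjusted p = 0.00198). Kcnc4, a fast Kv3 channel, stood at 58.7 and 80.8 CPM with shNup153-1 and 20.4, 27.2, 20.02 and 24.1 CPM with shControl (log2 fold change 1.61 with SE 0.19, edgeR BH-adjusted p = 0.00277). Kcnn2, a calcium-activated SK channel, stood at 51.9 and 62.6 CPM with shNup153-1 and 18.7, 21.7, 19.4 and 21.2 CPM with shControl (log2 fold change 1.50 with SE 0.15, edgeR BH-adjusted p = 0.00186). Kcng2, another silent subunit, fell by 1.68 (SE 0.27). Of 32 sodium and calcium channel genes 5 rose and 3 fell, and the counts became 2 and 0 without shNup153-1 replicate 1, 2 and 3 without shNup153-1 replicate 2, 3 and 1 without shNup153-2 replicate 1 or 2 or shControl replicate 4, and 5 and 1 without shControl replicate 3. Stac2, an adaptor of L-type calcium channels, stood at 90.7 and 58.3 CPM with shNup153-1 and 15.5, 5.26, 10.3 and 6.3 CPM with shControl (log2 fold change 2.99 with SE 0.39, edgeR BH-adjusted p = 0.00353). Cacna2d3, an auxiliary calcium channel subunit, stood at 78.1 and 70.5 CPM with shNup153-1 and 154, 190.1, 137 and 207 CPM with shControl (log2 fold change -1.21 with SE 0.22, edgeR BH-adjusted p = 0.00994). Kcng2 (0.0679) and Cacna2d3 (0.07) missed the threshold without shNup153-1 replicate 1 (edgeR BH-adjusted p in brackets), as did Cacna2d3 (0.062) without shNup153-1 replicate 2.

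Of 45 genes of presynaptic release 7 rose and 2 fell, with a median of 0.18, and with 1 library left out the counts became 1 and 1 without shNup153-1 replicate 1, 5 and 1 without shNup153-2 replicate 1 or 2 or shControl replicate 4, 7 and 1 without shControl replicate 1, and 10 and 1 without shControl replicate 2. Rph3a, rabphilin, stood at 366 and 263 CPM with shNup153-1 and 32.1, 41, 28.5 and 47.4 CPM with shControl (log2 fold change 3.08 with SE 0.24, edgeR BH-adjusted p = 0.00163). Vamp1, a vesicle SNARE, stood at 127 and 68.1 CPM with shNup153-1 and 19.6, 37.4, 18.4 and 21.1 CPM with shControl (log2 fold change 2.01 with SE 0.34, edgeR BH-adjusted p = 0.00794), and Cplx2, a complexin, rose by 1.16 (SE 0.20). Syt9, a synaptotagmin, stood at 11.3 and 13.9 CPM with shNup153-1 and 44.6, 48.7, 35.6 and 50.7 CPM with shControl (log2 fold change -1.83 with SE 0.21, edgeR BH-adjusted p = 0.00249). Of 16 GABA receptor genes 4 fell and none rose, with a median of -0.66, where 7.05% of all tested genes were called lower. Their numbers called higher and lower were 0 and 0 without shNup153-1 replicate 1, 0 and 1 without shNup153-1 replicate 2 or shNup153-2 replicate 1 or 2, and 0 and 2 without shControl replicate 1, 2 or 4. Of 25 glutamate receptor genes 2 rose and 3 fell. Beside this list and the presynaptic one, 6.52% of all tested genes were called higher and 7.05% lower. Grin1, the obligatory NMDA receptor subunit, stood at 484 and 385 CPM with shNup153-1 and 188, 188, 187 and 201 CPM with shControl (log2 fold change 1.18 with SE 0.16, edgeR BH-adjusted p = 0.00438), with 13.5% antisense overlap, and Gria1, an AMPA receptor subunit, at 260.5 and 267 CPM with shNup153-1 and 607, 585, 397 and 677 CPM with shControl (log2 fold change -1.10 with SE 0.25, edgeR BH-adjusted p = 0.0241). Slc1a1, a neuronal glutamate transporter, stood at 62.6 and 61.5 CPM with shNup153-1 and 146, 175, 146 and 164 CPM with shControl (log2 fold change -1.35 with SE 0.17, edgeR BH-adjusted p = 0.00307), with 31.9% antisense overlap. Shank3, a scaffold of excitatory synapses, stood at 125 and 222 CPM with shNup153-1 and 59.5, 40.6, 55.5 and 47.6 CPM with shControl (log2 fold change 1.77 with SE 0.25, edgeR BH-adjusted p = 0.00438). Vamp1 (0.0795), Cplx2 (0.0692) and Gria1 (0.145) missed the threshold without shNup153-1 replicate 1 (edgeR BH-adjusted p in brackets), as did Gria1 (0.0528) without shControl replicate 1, Gria1 (0.0642) without shControl replicate 4 and Gria1 (0.101) without shNup153-1 replicate 2.

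Of 63 axon guidance genes 5 rose and 11 fell, against 6.52% and 7.05% of all genes. They became 2 and 0 without shNup153-1 replicate 1. The repulsive ligand gene Slit3 stood at 5.38 and 12.9 CPM with shNup153-1 and 57.1, 29.2, 39.4 and 36.9 CPM with shControl (log2 fold change -2.15 with SE 0.40, edgeR BH-adjusted p = 0.0112), and Slit1 fell by 1.21 (SE 0.23). Efnb1 and Efnb2, membrane-bound ligands of Eph receptors, fell by 1.39 (SE 0.23) and 1.21 (SE 0.20). Plxnd1, a semaphorin receptor, stood at 109 and 195 CPM with shNup153-1 and 630.5, 519, 324 and 398 CPM with shControl (log2 fold change -1.62 with SE 0.35, edgeR BH-adjusted p = 0.0189). Rises included Unc5a, a netrin receptor, at 62.9 and 71.8 CPM with shNup153-1 and 22.2, 26.3, 16.3 and 30.1 CPM with shControl (log2 fold change 1.51 with SE 0.24, edgeR BH-adjusted p = 0.0068), and Sema6b, at 107 and 106 CPM with shNup153-1 and 40.4, 48.9, 34.6 and 49.8 CPM with shControl (log2 fold change 1.29 with SE 0.19, edgeR BH-adjusted p = 0.00497). Of 42 Wnt pathway genes 3 rose and 6 fell, and with 1 library left out the counts were 0 and 1 without shNup153-1 replicate 1, 1 and 2 without shNup153-1 replicate 2, and 1 and 4 without shNup153-2 replicate 1 or 2 or shControl replicate 4. Wnt2b stood at 0.303 and 0.593 CPM with shNup153-1 and 6.38, 4.46, 4.19 and 4 CPM with shControl (log2 fold change -3.39 with SE 0.43, edgeR BH-adjusted p = 0.00307), the receptor gene Fzd1 fell by 1.44 (SE 0.22), and Wnt7b rose by 1.49 (SE 0.27). Rfng, a glycosyltransferase that tunes Notch, stood at 95.8 and 76.2 CPM with shNup153-1 and 16.4, 30.4, 22.3 and 31.2 CPM with shControl (log2 fold change 1.78 with SE 0.26, edgeR BH-adjusted p = 0.00497). Slit3 (0.0691), Slit1 (0.0868), Efnb1 (0.0652), Efnb2 (0.0786), Plxnd1 (0.14), Fzd1 (0.0614) and Wnt7b (0.0856) missed the threshold without shNup153-1 replicate 1 (edgeR BH-adjusted p in brackets).

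Chromatin regulators were examined because the series title names HDAC1. Hdac1 did not pass the test, at 11 and 11.1 CPM with shNup153-1 and 11.5, 14.8, 13.6 and 14.4 CPM with shControl (edgeR BH-adjusted p = 0.34). Its paralogue Hdac2, the other class I deacetylase of the same complexes, stood at 71.7 and 61.4 CPM with shNup153-1 and 166, 232, 156 and 204 CPM with shControl (log2 fold change -1.51 with SE 0.22, edgeR BH-adjusted p = 0.00524). Of 18 deacetylase genes 2 rose and 3 fell, where 6.52% of all tested genes were called higher and 7.05% lower. Hdac5, a class IIa deacetylase exported from the nucleus on calcium signals, stood at 192 and 143 CPM with shNup153-1 and 63.6, 94.1, 72.7 and 101 CPM with shControl (log2 fold change 1.01 with SE 0.22, edgeR BH-adjusted p = 0.0214). Sirt5, a mitochondrial sirtuin, stood at 4.43 and 4.87 CPM with shNup153-1 and 10.9, 9.76, 12.8 and 10.05 CPM with shControl (log2 fold change -1.22 with SE 0.22, edgeR BH-adjusted p = 0.00972). Of 21 Polycomb genes 2 fell, among them Suz12, a core subunit of the H3K27 methyltransferase, by 1.41 (SE 0.32). Hdac5 (0.166), Sirt5 (0.0849) and Suz12 (0.159) missed the threshold without shNup153-1 replicate 1 (edgeR BH-adjusted p in brackets), as did Suz12 (0.0796) without shNup153-1 replicate 2.

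Further calls in signalling and matrix genes held with any library left out. Tgfb3, a transforming growth factor, stood at 22.2 and 23.9 CPM with shNup153-1 and 6.77, 5.63, 7.85 and 8.74 CPM with shControl (log2 fold change 1.67 with SE 0.23, edgeR BH-adjusted p = 0.00407), with 12.4% antisense overlap. Akt2, a kinase of insulin signalling, stood at 60.5 and 69.4 CPM with shNup153-1 and 26.6, 19.7, 28.2 and 25.2 CPM with shControl (log2 fold change 1.38 with SE 0.20, edgeR BH-adjusted p = 0.00463). Dusp8, a phosphatase of stress kinases, stood at 128 and 132 CPM with shNup153-1 and 63, 62, 57.5 and 71 CPM with shControl (log2 fold change 1.04 with SE 0.15, edgeR BH-adjusted p = 0.00534). The shNup153-1 libraries stood above all shControl libraries in these genes. Hapln1, a link protein of perineuronal nets, stood at 79.6 and 82.5 CPM with shNup153-1 and 40.7, 31.5, 29.6 and 29.8 CPM with shControl (log2 fold change 1.30 with SE 0.18, edgeR BH-adjusted p = 0.00389). Rcan2, an inhibitor of calcineurin, stood at 92.6 and 70.9 CPM with shNup153-1 and 26.1, 18.9, 25.6 and 30.2 CPM with shControl (log2 fold change 1.70 with SE 0.21, edgeR BH-adjusted p = 0.00279). Slc7a8, a transporter of neutral amino acids, stood at 75.9 and 105 CPM with shNup153-1 and 13.8, 10.7, 19.7 and 12.1 CPM with shControl (log2 fold change 2.68 with SE 0.25, edgeR BH-adjusted p = 0.00163). Elavl3, a neuronal RNA-binding protein, rose by 1.61 (SE 0.15), and Gjc1, a connexin, fell by 2.40 (SE 0.31). In their lists the calls in either direction stand beside 13.6% of all tested genes. They were 1 of 12 Slc7 transporters, 3 of 21 insulin and IGF genes and 2 of 37 Shh, BMP and TGF-beta genes. The matrix list had 8 of 40 and the calcineurin and Rcan list 2 of 14. Slc7a8, Akt2, Tgfb3, Hapln1 and Rcan2 were the only calls of these lists that held with any library left out. 

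The circadian list had calls in 9 of 19 genes, 5 higher and 4 lower, where 13.6% of all tested genes were called in either direction. With 1 shControl library left out the counts were 4 and 3 without replicate 1, 2 or 3, and 2 and 4 without replicate 4. Most of the calls were lost when either shNup153-1 library was left out. Only those of Cry1 and Nr1d1 held with any library left out. The list median was 0.08, but 0.41 without shNup153-1 replicate 1 and -0.51 without shNup153-1 replicate 2. Cry1, a repressor of the clock, stood at 13.7 and 16.6 CPM with shNup153-1 and 57.5, 66.5, 59.5 and 63 CPM with shControl (log2 fold change -2.03 with SE 0.18, edgeR BH-adjusted p = 0.00163). Nr1d1, the receptor REV-ERB alpha, stood at 67.4 and 80.7 CPM with shNup153-1 and 36.8, 35.2, 30.9 and 36.5 CPM with shControl (log2 fold change 1.09 with SE 0.17, edgeR BH-adjusted p = 0.00643). Dbp and Tef, related activators of clock output, moved in opposite directions, Dbp by 1.58 (SE 0.32) and Tef by -0.93 (SE 0.19), with 18% antisense overlap for Dbp. Bhlhe40, a clock repressor that hypoxia also induces, stood at 30.3 and 51.5 CPM with shNup153-1 and 106, 91.4, 86.5 and 124 CPM with shControl (log2 fold change -1.32 with SE 0.29, edgeR BH-adjusted p = 0.0215). Of 19 genes under glucocorticoid control 2 rose and 3 fell, against 6.52% of all tested genes called higher and 7.05% lower. Among them Fkbp5, a cochaperone of the receptor, stood at 23.1 and 22.9 CPM with shNup153-1 and 54.7, 75.1, 59.9 and 65.7 CPM with shControl (log2 fold change -1.47 with SE 0.18, edgeR BH-adjusted p = 0.00307). Tef (0.119) and Bhlhe40 (0.151) missed the threshold without shNup153-1 replicate 1 (edgeR BH-adjusted p in brackets), as did Dbp (0.1) without shNup153-1 replicate 2.

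Of 39 glycolysis and hypoxia genes 1 rose and 7 fell, with a median of -0.59, against 6.52% of all tested genes called higher and 7.05% lower. The list followed the pairs of shControl libraries, with mean log2 CPM of 5.65 and 5.76 with shNup153-1, against 7.06 and 6.84 in shControl replicates 1 and 3 and 5.84 and 6.11 in shControl replicates 2 and 4. Ndrg1, induced by hypoxia, stood at 20.2 and 16.8 CPM with shNup153-1 and 339.7, 317, 190.4 and 399.8 CPM with shControl (log2 fold change -4.08 with SE 0.37, edgeR BH-adjusted p = 0.00163), without that split. Ddit4, which curbs mTOR, stood at 64.9 and 108 CPM with shNup153-1 and 427, 218, 279.6 and 196 CPM with shControl (log2 fold change -1.70 with SE 0.37, edgeR BH-adjusted p = 0.0201). Ldha, lactate dehydrogenase A, stood at 375 and 269 CPM with shNup153-1 and 1001, 600.5, 750.2 and 538 CPM with shControl (log2 fold change -1.17 with SE 0.30, edgeR BH-adjusted p = 0.0352). With 1 library left out, the numbers called higher and lower became 0 and 1 without shNup153-1 replicate 1, 0 and 2 without shNup153-1 replicate 2, 0 and 6 without shControl replicate 4, 1 and 2 without shNup153-2 replicate 1 or 2, 1 and 4 without shControl replicate 1, and 2 and 14 without shControl replicate 2. Of 31 genes of cholesterol synthesis and uptake 4 fell and none rose, with a median of -0.69, where 7.05% of all tested genes were called lower. Those counts became 0 and 0 without shNup153-1 replicate 1, and 0 and 2 without shNup153-1 replicate 2. The steroid reductase gene Hsd17b7 stood at 7.81 and 11.3 CPM with shNup153-1 and 119, 59.1, 59.8 and 47.3 CPM with shControl (log2 fold change -2.90 with SE 0.42, edgeR BH-adjusted p = 0.00493). Ddit4 (0.152), Ldha (0.103) and Hsd17b7 (0.0559) missed the threshold without shNup153-1 replicate 1 (edgeR BH-adjusted p in brackets), as did Ldha (0.0556) without shControl replicate 1, Ldha (0.0581) without shControl replicate 3, Ldha (0.172) without shNup153-1 replicate 2, Ldha (0.069) without shNup153-2 replicate 1 and Ldha (0.0691) without shNup153-2 replicate 2.

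Lists of stress and damage genes had calls in opposite directions. Beside their counts, 6.52% of all tested genes were called higher and 7.05% lower. Of 30 p53 targets and apoptosis genes 6 fell and none rose, with a median of -0.35. The numbers called higher and lower were 0 and 2 without shNup153-1 replicate 1. Besides Tigar and Plk2 they included Apaf1, the core of the apoptosome, at 33.6 and 55.6 CPM with shNup153-1 and 124, 80.6, 107 and 126 CPM with shControl (log2 fold change -1.29 with SE 0.28, edgeR BH-adjusted p = 0.0191), and Bcl2l11, the death activator Bim, at 15.8 and 14.7 CPM with shNup153-1 and 29.3, 28.9, 26.9 and 25 CPM with shControl (log2 fold change -0.85 with SE 0.17, edgeR BH-adjusted p = 0.0132). Of 30 DNA repair genes 3 fell and none rose, with Xrcc4, the partner of Lig4, at 5.84 and 5.58 CPM with shNup153-1 and 13, 17.9, 14.2 and 16 CPM with shControl (log2 fold change -1.42 with SE 0.21, edgeR BH-adjusted p = 0.0056). Of 27 heat shock and oxidative stress genes 5 rose and none fell, with a median of 0.47, where 6.52% of all tested genes were called higher. The counts were 0 and 0 without shNup153-1 replicate 1, and 3 and 0 without shNup153-2 replicate 1 or 2, and the median without shNup153-1 replicate 1 was 0.05. Srxn1, which repairs peroxiredoxins, stood at 218 and 129.6 CPM with shNup153-1 and 54.5, 71.7, 67.7 and 63.2 CPM with shControl (log2 fold change 1.44 with SE 0.24, edgeR BH-adjusted p = 0.00818), and Mt3, a brain metallothionein, at 379 and 312 CPM with shNup153-1 and 132, 152, 137 and 186 CPM with shControl (log2 fold change 1.19 with SE 0.21, edgeR BH-adjusted p = 0.00932). Of 39 genes of the unfolded protein response 2 fell, a share below the 7.05% of all tested genes called lower. Among them Pdia6, a protein disulfide isomerase, stood at 63.3 and 64.8 CPM with shNup153-1 and 215, 233, 339 and 204 CPM with shControl (log2 fold change -1.95 with SE 0.29, edgeR BH-adjusted p = 0.00519). Ccne2, cyclin E2, stood at 2.27 and 2.84 CPM with shNup153-1 and 27.8, 18.4, 22.1 and 19.6 CPM with shControl (log2 fold change -3.10 with SE 0.28, edgeR BH-adjusted p = 0.00163), with 17.4% antisense overlap, and was one of 3 calls among 43 cell cycle genes. None of 44 ribosomal protein genes, 15 mitochondrially encoded genes or 23 clustered protocadherins was called in the edgeR test. The protocadherin list has 58 members, of which only these 23 lie in the lines used. Of 50 respiratory chain genes 1 fell, Cycs, cytochrome c, and the list followed the library pairs, with mean log2 CPM of 7.60 and 6.75 with shNup153-1, against 6.57 and 6.60 in shControl replicates 1 and 3 and 7.65 and 7.24 in replicates 2 and 4. Apaf1 (0.139), Bcl2l11 (0.0807), Xrcc4 (0.0525), Srxn1 (0.0778), Mt3 (0.0821) and Pdia6 (0.0554) missed the threshold without shNup153-1 replicate 1 (edgeR BH-adjusted p in brackets), as did Bcl2l11 (0.073) without shNup153-1 replicate 2.

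**Figure D5:**
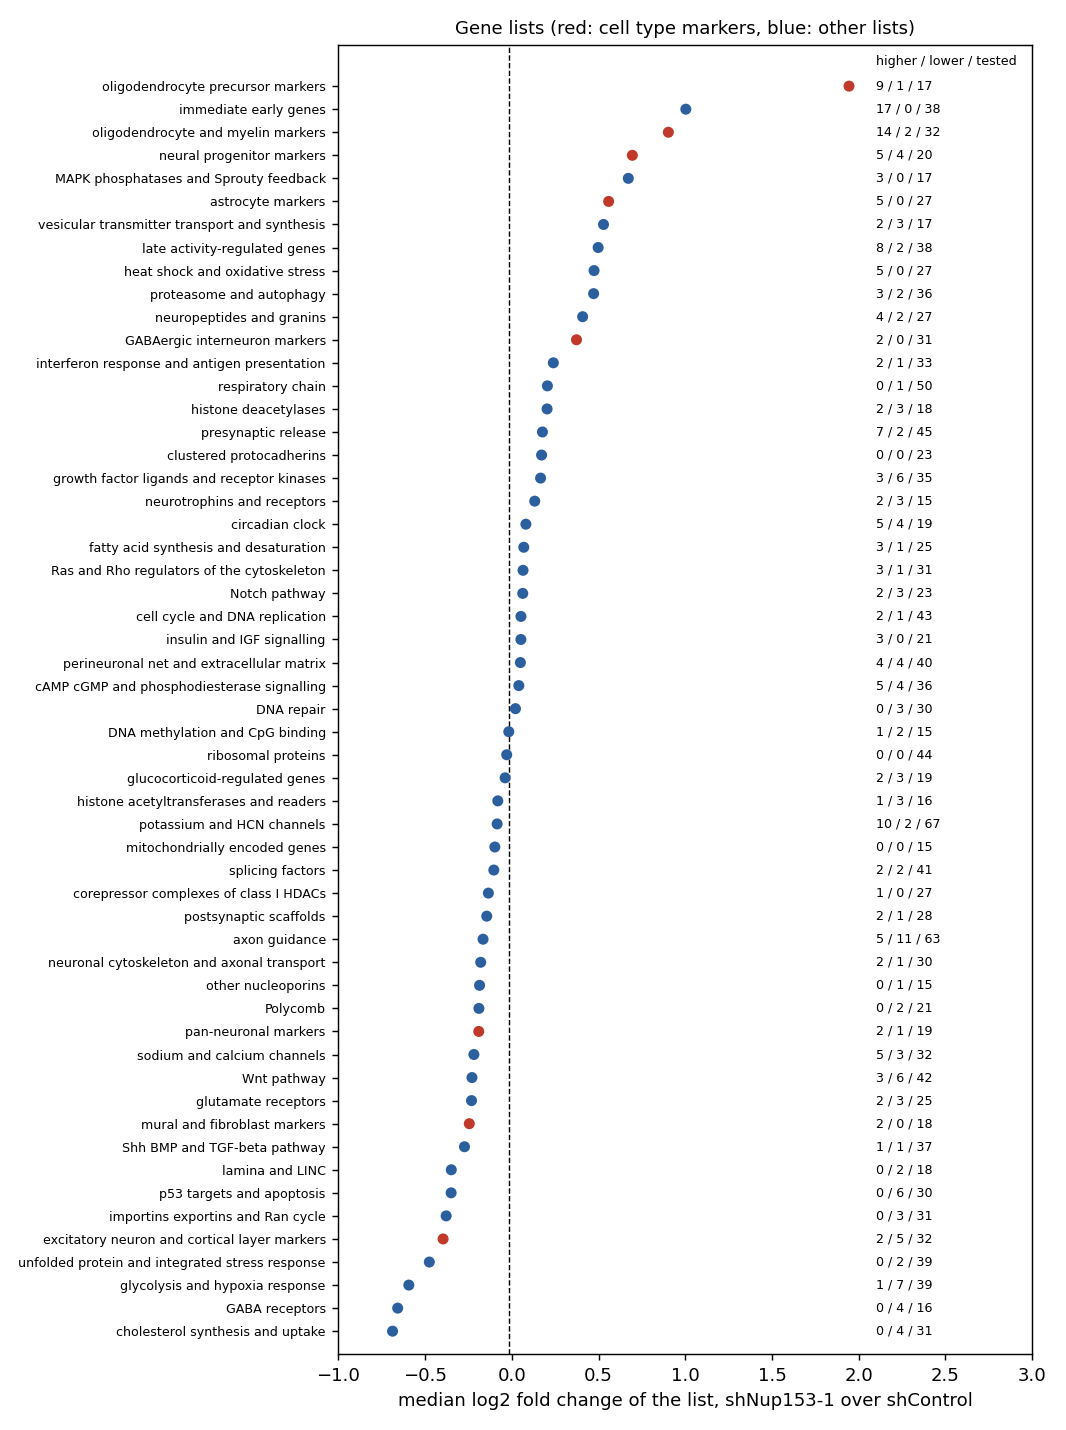
Median log2 fold change of shNup153-1 over shControl (x axis) of the gene lists with at least 15 tested members (y axis), each point a list, with the counts of members called higher and lower over the number tested beside it. The dashed line marks the median of all genes tested, -0.02, and the precursor markers stand at 1.94 and the cholesterol list at -0.69.

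A direct test of shNup153-1 against the second hairpin, shNup153-2, showed where the hairpins differed. Nup153 itself did not pass, with a log2 fold change of shNup153-1 over shNup153-2 of 0.85 (SE 0.34, edgeR BH-adjusted p = 0.164). Of 14529 genes 243 were higher with shNup153-1 (1.67%) and 408 were lower (2.81%), 651 in all (4.48%). Of these genes 93 were also called higher and 240 also called lower against shControl, while 9 were called higher against shControl and lower against shNup153-2, and 1 the other way. The test has both shNup153-1 libraries in common with the comparison with shControl. Without either shNup153-2 library no gene was called by edgeR, and without shNup153-1 replicate 1 only 4 were, so the calls rest on 2 libraries a group. Without shControl replicates 1, 2, 3 and 4 the counts were 573, 998, 381 and 252.

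Oligodendrocyte lineage genes led the difference. Gpr17 stood at 25.3 and 11.2 CPM with shNup153-1 and 0.0467 and 0 CPM with shNup153-2 (log2 fold change 9.34 with SE 1.29, edgeR BH-adjusted p = 0.0117). Bcas1 stood at 30.02 and 15.1 CPM with shNup153-1 and 0.0467 and 0.0803 CPM with shNup153-2 (log2 fold change 8.41 with SE 1.01, edgeR BH-adjusted p = 0.00863). Pdgfra stood at 107 and 41.2 CPM with shNup153-1 and 3.64 and 1.77 CPM with shNup153-2 (log2 fold change 4.77 with SE 0.97, edgeR BH-adjusted p = 0.0343). Of 17 precursor markers 3 were higher with shNup153-1 than with shNup153-2 and none lower. Of 32 oligodendrocyte and myelin markers 7 were higher and none lower. Over all tested genes the shares were 1.67% higher and 2.81% lower. For Pdgfra the shNup153-2 libraries lay within the range of the shControl libraries, and for Gpr17 and Bcas1 all libraries without shNup153-1 were below 1 CPM. Nr4a1, Arc and Npas4 did not pass this test, with differences of -0.68 (SE 0.55), -0.66 (SE 0.48) and 0.83 (SE 0.47).

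Genes lower with shNup153-1 than with shNup153-2 included carriers of TGGCTTT. Pgm2l1 stood at 61.4 and 106 CPM with shNup153-1 and 957 and 632 CPM with shNup153-2 (log2 fold change -3.25 with SE 0.42, edgeR BH-adjusted p = 0.0108). Tm9sf3 stood at 37.3 and 40.4 CPM with shNup153-1 and 258 and 268 CPM with shNup153-2 (log2 fold change -2.76 with SE 0.20, edgeR BH-adjusted p = 0.00293), and its 3′ UTR holds 1 copy. Actr2 stood at 68.5 and 80.4 CPM with shNup153-1 and 455 and 443 CPM with shNup153-2 (log2 fold change -2.59 with SE 0.24, edgeR BH-adjusted p = 0.00798). Dhh, desert hedgehog, stood at 0.0758 and 0.187 CPM with shNup153-1 and 2.08 and 2.09 CPM with shNup153-2 (log2 fold change -3.91 with SE 0.61, edgeR BH-adjusted p = 0.0154), with 25.2% antisense overlap. Scarf2, a scavenger receptor, stood at 0.265 and 0.749 CPM with shNup153-1 and 13 and 8.3 CPM with shNup153-2 (log2 fold change -4.36 with SE 0.91, edgeR BH-adjusted p = 0.0363), and at 3.07, 0.475, 2.36 and 0.928 CPM with shControl. Colq, the collagen tail of acetylcholinesterase, stood at 0.341 and 0.218 CPM with shNup153-1 and 2.66 and 2.94 CPM with shNup153-2 (log2 fold change -3.32 with SE 0.58, edgeR BH-adjusted p = 0.0213), and at 0.202, 0.0365, 0.124 and 0.096 CPM with shControl. In both genes the libraries of shNup153-2 stood above all shControl libraries. Wnt10b, Arsj and Angpt2 were called lower as well, with log2 fold changes over shNup153-2 of -3.64 (SE 0.71), -3.04 (SE 0.65) and -4.23 (SE 0.84). In this comparison 1.67% of all tested genes were called higher and 2.81% lower. Of 67 potassium and HCN channel genes 1 was higher and 9 lower with shNup153-1 than with shNup153-2, with a median of -0.71. Ywhag, by contrast, was higher, at 1330.3 and 1407 CPM with shNup153-1 and 533 and 520.1 CPM with shNup153-2 (log2 fold change 1.38 with SE 0.22, edgeR BH-adjusted p = 0.016), and so was Slc25a39, a mitochondrial glutathione carrier, at 151 and 89.9 CPM with shNup153-1 and 29.2 and 32.6 CPM with shNup153-2 (log2 fold change 1.96 with SE 0.28, edgeR BH-adjusted p = 0.012).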

How the data were processed

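Per the labels' protocols, strand-specific poly(A) libraries were sequenced in paired 100-base reads, and 1 replicate is 1 pooled litter. The authors deposited raw counts per gene symbol, made with featureCounts 2.0.1 on mm10 per the submitters' processing notes. The sources used here name no aligner, no annotation and no strand setting for featureCounts. Both shNup153-1 columns are out of register with the gene symbols from line 16420 on. Their Pearson r with shControl over log2 values was 0.976 in the lines used and 0.100 in the 9972 lines left out, which start shortly before that line. Library totals (26863535 to 56299817 counts) came from all lines. A pair of columns that share a name could not be given a sample (2 columns) and were not used.

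Counts were tested with edgeR 4.0.16 in R 4.3.3 (filterByExpr with a minimum count of 10, TMM scaling, quasi-likelihood test, Benjamini-Hochberg threshold 0.05). One fit held the 3 basal groups, 8 libraries in all, and gave both contrasts. CPM was computed from TMM-scaled library totals. Alternatives were DESeq2 1.42.0, limma 3.58.1 (voom), other scaling and filters, a replicate block, and each library left out. The fit was tested on simulated data with known changes.

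The members and all 68 gene lists were chosen with earlier results of these data known. Genes named by size, CPM or hairpin difference had to pass the threshold with no overlap between groups. They also had to average 1 CPM or more in whichever group was higher. These conditions did not apply to genes named as list members. Named were the 12 largest changes and the 10 of highest CPM each way, the 8 largest differences between hairpins each way, up to 6 genes of smallest p per list, and every member of short lists. Actr2, Btg2, Cd24a, Cdh2, Fos, Gfap, Hdac1, Hk2, Kcng2, Mbp, Plxnd1, Slc25a39, Slit1, Slit3, Tm9sf3, Traf3 and Vcan lie outside this rule and were chosen after their values were seen. Of the gene symbols used, 99.4% matched 1 gene of GENCODE M21 (mm10), which gave coordinates, 3′ UTRs and antisense overlap. Some genes called within the naming rule are not reported here. Exact intervals on count ratios cover counting error only.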

Additional observations from a re-analysis of the deposited data

Results flagged for a closer look

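In 8 of the 149 genes named above, 1 of the 4 shControl libraries stood apart from the others, its gap to the nearest library taking a share of the group's range above Dixon's 95% critical value. Chance alone gives this in about 1 in 20 such groups. Replicate 4 was the high library for Gpr17 (share 1.0, level 0.16 CPM), Gjc3 (share 1.0, level 0.032 CPM), Plxnb3 (share 0.838, level 0.192 CPM), Sox10 (share 0.89, level 2.18 CPM) and Grin1 (share 0.932, level 201 CPM). Replicate 1 was the high library for Cdh2 (share 0.8545, level 474 CPM) and Hapln1 (share 0.8293, level 40.7 CPM), and replicate 2 for Vamp1 (share 0.857, level 37.4 CPM). In all 8 genes the shNup153-1 libraries lay outside the range of the shControl libraries with the high library included. All 8 were called, and 1970 of the 1971 genes called did not overlap, so this follows from the choice of genes. For Gjc3 and Gpr17 the other shControl libraries were at 0 CPM.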

How the results depend on the processing

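The 1971 calls against shControl became 3146 with DESeq2 (1525 higher, 1621 lower), 1203 in a fit of the compared groups alone and 7997 over all lines as deposited, where the shNup153-1 columns are out of register. Scaling by RLE, no filter, limma-voom and the lines shifted back gave 1975, 1847, 1908 and 2141. The 651 calls against shNup153-2 became 2102 with DESeq2 and 6665 over all lines as deposited. With 1 library left out the calls ran from 356 (without shNup153-1 replicate 1) to 2050 against shControl, and from 0 (without either shNup153-2 replicate, with 1868 and 2293 genes at an unadjusted p under 0.05) to 998 against shNup153-2. Nup153 ran from -2.08 to -1.36 (edgeR adjusted p = 0.103 without shNup153-1 replicate 1).

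Same-numbered shNup153-1 and shControl libraries did not deviate together (residual r of -0.58 and -0.65), and the labels do not tie a number to a litter. Libraries of other numbers did. Replicate 1 of shNup153-1 deviated with shControl replicates 2 and 4 (residual r of 0.65 and 0.38). Replicate 2 deviated with shControl replicates 1 and 3 (0.58 and 0.55). With 2 libraries in the group their deviations from its mean mirror each other. The values of replicate 2 are thus those of replicate 1 with the sign turned, and add no separate observation. A block by number therefore joins shNup153-1 and shControl libraries that deviate in opposite directions. Numbers 3 and 4 occur only with shControl among the libraries used, so under the block those libraries add nothing to the comparison. The block also leaves little from which to estimate the spread. Which of these features took the calls away was not tested. With the replicate number as a block, edgeR called 0 genes in both comparisons (2296 and 1939 at an unadjusted p under 0.05), and Nup153 was at -1.70 (adjusted p = 0.206).

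Gene lists with at least 10 tested members and a median of 0.5 or more in size numbered 10, with 10 to 14 under other settings and 10 to 20 with a library left out. Gfap, at 0.56 on the log2 scale with shNup153-1, turned to -0.64 with limma-voom and -0.62 with the block, and ran from -6.02 to 1.55 with a library left out. Tpr ran from -0.35 to 0.015 in those fits. The cause was not tested in either gene. For the named genes besides Nup153, 1175 of 1330 values under other settings and 1058 of 1184 with a library left out kept direction and side of the threshold. With 2 libraries in the shNup153-1 group, 1 library decides many calls.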
